A study of Rattus norvegicus with 12 samples.

Results

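The averaged effect of interferon alpha was the mean of 6 paired differences between treated and untreated primary rat hepatocytes, each pair holding a treated and an untreated culture of the same time and replicate number, taken over both exposure times for every probe set that is not a control of the array. All 12 arrays of the series entered, as 6 pairs, and 31042 of 31099 probe sets were measured, the other 57 being control probe sets. The cells were hepatocytes of Wistar rats, freed from the liver with collagenase, purified on Percoll and used on the day after isolation. The 4 groups were cultures with rat interferon alpha at 250 units per ml for 3 h, cultures without it at 3 h, cultures with the same dose for 6 h and cultures without it at 6 h, with 3 arrays in each. The labels call them biological replicates and do not say whether both times of a replicate number came from the same isolation, so a p-value over the 6 pairs may treat linked pairs as separate.

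Interferon alpha is a cytokine of antiviral defence. It binds a receptor of 2 chains, whose kinases activate transcription factors that bind the interferon-stimulated response element and the gamma-activated site in promoters. Hepatocytes carry this receptor, and the genes switched on strongly in them are the classical antiviral ones. Where an effect is alike at both times, a mean over more pairs can have a smaller error than a mean at a single time. A change between the times counts as error in the averaged fit, so this fit need not pass more probe sets than a single time does. Changes too small to pass at 3 h or 6 h alone were looked for here: weak rises that recurred in all 6 pairs, and falls.

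The values were log2 expression levels made with RMA, which sets all arrays to a common distribution, so a change common to most transcripts would not be seen. Array medians ran from 5.16 to 5.21 log2, and correlations between arrays from 0.979 to 0.997. Of the markers checked for hepatocytes and 7 other cell types 0 were called in limma, and 3 had an unadjusted p under 0.05, among them 1 of 7 for Kupffer cells and macrophages. The 9 hepatocyte markers averaged 12.71 to 12.97 log2 on treated arrays and 12.72 to 12.94 on untreated ones, and the Kupffer cell and macrophage markers averaged 6.45 to 7.17 on treated arrays and 6.41 to 7.20 on untreated ones, with 2 of them below the lower quartile of all levels. In such bulk samples fewer cells of a type and less RNA per cell cannot be told apart.

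Averaged over both times, interferon alpha raised 212 probe sets (0.683% of those tested) and lowered 57 (0.184%) at an adjusted p under 0.05 in limma, which is what called means below. The rises stood for 123 named genes and the falls for 39, while 58 rising and 16 falling probe sets had no single gene symbol. The strongest rises were those of Cxcl10, a chemokine that attracts T cells, at 4.67 ± 0.315 log2 (SE, 6 pairs; adjusted p = 0.00141), Cmpk2, a mitochondrial nucleotide kinase, at 4.05 ± 0.529 (adjusted p = 0.0126), and the antiviral protein Ifit3 at 3.79 ± 0.418 (adjusted p = 0.00784). Of the 212 rises, 109 reached 2-fold. The other rises were smaller, and 102 of them were higher in all 6 pairs: these are called weak and steady rises below. None of the 57 falls reached 1.5-fold, and all 57 were lower in all 6 pairs.

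A common sign in 6 pairs was not rare by itself. Among all 31042 probe sets, 1030 (3.32%) were higher with interferon in every pair and 1935 (6.23%) were lower in every pair. Of those lower in every pair, 1145 lay above the upper quartile of level, where the median averaged effect was -0.05 log2, against 129 below the lower quartile, where it was 0.01. Without adjustment, 1790 probe sets were higher and 2846 lower at p under 0.05. The sign of the pairs is therefore given as a description, and the calls rest on the adjusted p of the averaged effect.

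How many probe sets passed depended on single pairs. Without the 3 h pair of replicate 1, 305 were called higher and 110 lower. Without the 3 h pair of replicate 2 the counts were 43 and 3, without that of replicate 3 they were 79 and 4, and without the 6 h pairs of replicates 1, 2 and 3 they were 45 and 9, 84 and 4, and 54 and 4. With both pairs of replicate 1 left out, 218 were called higher and 56 lower, of which 178 and 14 were among the 212 and 57. With both pairs of replicate 2 left out, 3 were called higher and 0 lower, and with both pairs of replicate 3 left out 0 and 0, where 1270 were higher and 1643 lower at p under 0.05 before adjustment. In a fit to the 12 arrays with the replicate number as a block the counts were 317 higher and 24 lower, and without any block 134 and 1.

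The weak and steady rises comprised 102 probe sets, 69 of them naming 58 genes. Their means ran from 0.25 to 0.98 log2 with a median of 0.52, and 59 of them lay under 1.5-fold. With the replicate block 86 of the 102 were called, with a single value for each replicate number 51, and without any block 30. Several have a place in known interferon pathways, such as the death receptor caspase Casp8, the ISG15-activating enzyme Uba7 and the ubiquitin ligases Trim25 and Trim26. Others among the 20 named have other roles: Mad2l1bp silences the spindle checkpoint, Med17 is a subunit of Mediator, Pnn is a splicing-associated nuclear protein, Sinhcaf belongs to the SIN3 histone deacetylase complex and Elf1 is an ETS transcription factor.

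Casp8, the initiator caspase of death receptors, had the lowest adjusted p among the named weak rises. It stood at 6.39, 7.27 and 6.79 log2 in the interferon cultures of replicates 1 to 3 at 3 h, against 5.87, 6.50 and 6.10 in the untreated ones, and at 7.71, 7.91 and 7.51 with interferon at 6 h, against 6.78, 6.81 and 6.52 without. The treated arrays were the higher in each pair; the groups overlapped at 3 h, where replicate 1 was low in both arms, and did not overlap at 6 h. The mean rise was 0.83 ± 0.075 log2 (SE), or 1.78-fold, with an adjusted p of 0.00267, and in the paired fit it also passed at 3 h alone (0.66 log2, adjusted p = 0.0362) and at 6 h alone (1.01 log2, adjusted p = 0.00311). With the replicate block on 12 arrays it passed at 6 h (adjusted p = 0.00330) and not at 3 h (adjusted p = 0.211), and without a block at neither time (adjusted p = 1.00 at 3 h and 0.134 at 6 h). A second Casp8 probe set was higher in all 6 pairs, with a mean of 0.62 log2, and did not pass (adjusted p = 0.0537). Casp8 stayed called in 17 of 20 alternative analyses, and not in the fit without a block (adjusted p = 0.0516).

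Csf1, the growth factor of macrophages, was seen by 4 probe sets, of which 3 were called. Its brightest probe set stood at 10.21, 10.12 and 10.21 log2 with interferon at 3 h, against 9.81, 9.74 and 9.71 without, and at 10.04, 10.01 and 10.05 with interferon at 6 h, against 9.68, 9.85 and 9.57 without. All treated arrays thus lay above all untreated ones at both times. The mean of 0.38 ± 0.054 log2 (adjusted p = 0.0166) passed only as an average, with adjusted p of 0.190 at 3 h and 0.109 at 6 h. The dimmer called probe sets rose more, by 0.80 and 1.13 log2, and the one that did not pass had a mean of 0.11 log2 (adjusted p = 0.325). The differences of the probe set at 0.80 log2 were 0.37, 0.94 and 0.54 at 3 h and 0.93, 1.14 and 0.85 at 6 h.

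Of the 20 named, Trim25, Trim26, Uba7 and Usp37 act on ubiquitin or ISG15. Trim25, a ligase for both modifiers that acts on the RNA sensor RIG-I, was higher by 0.44, 0.76 and 1.15 log2 in the 3 h pairs of replicates 1 to 3 and by 0.86, 0.79 and 1.56 in the 6 h pairs, a mean of 0.92 ± 0.121 (adjusted p = 0.0127). Trim26, a ubiquitin ligase of the same family, was higher by 0.25, 1.02 and 0.80 at 3 h and by 0.86, 1.39 and 0.95 at 6 h, a mean of 0.88 ± 0.117 (adjusted p = 0.0143). In both genes the 3 h pair of replicate 1 held the smallest difference. For Uba7 all 3 probe sets were called: the dimmest rose weakly, by 0.67 ± 0.080 log2 (adjusted p = 0.00831), while the others rose by 1.27 and 2.07 log2, so the size of the Uba7 rise depended on the probe set. Usp37, an enzyme that removes ubiquitin, was higher by 0.41, 0.75 and 0.46 at 3 h and by 0.72, 0.58 and 0.30 at 6 h, a mean of 0.54 ± 0.067 (adjusted p = 0.0110).

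The next 6 named weak rises are in none of the lists counted here. Mad2l1bp was higher by 0.44, 1.28 and 0.90 log2 at 3 h and by 0.77, 1.31 and 0.90 at 6 h, with a mean of 0.93 ± 0.105 (adjusted p = 0.00790). Sinhcaf was higher by 0.41, 1.04 and 1.04 at 3 h and by 0.64, 0.67 and 0.60 at 6 h, with a mean of 0.73 ± 0.085 (adjusted p = 0.00806). Med17 rose by 0.76 ± 0.101 (adjusted p = 0.0140). Replicate 2 gave the largest difference of Mad2l1bp and Med17 at both times, and for Sinhcaf the 3 h pairs of replicates 2 and 3 were above all 6 h pairs. Pnn passed on 2 of its 4 probe sets, at 0.57 ± 0.072 and 0.50 log2 (adjusted p = 0.0115 and 0.0118), and the other 2 had means of 0.37 and 0.30 log2. Tent4a, which adds tails to RNA, rose by 0.61 ± 0.074 log2 (adjusted p = 0.00940), and Elf1 by 0.56 ± 0.071 (adjusted p = 0.0116). Another Tent4a probe set passed at 0.29 log2 (adjusted p = 0.0423). The dimmest had 0.23 log2, was higher in 5 of 6 pairs and did not pass (adjusted p = 0.162). The dimmer Elf1 probe set had 0.43 log2, was higher in 5 of 6 pairs and did not pass (adjusted p = 0.0536).

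Fnbp4, a formin-binding protein, was called on all 3 of its probe sets. The brightest was higher by 0.42, 0.70 and 0.46 log2 at 3 h and by 0.42, 0.74 and 0.55 at 6 h. These 6 values span a narrow range at both times, with replicate 2 highest in each. Their mean was 0.55 ± 0.058 log2 (adjusted p = 0.00570), and the difference between the times was 0.04 log2 with a 95% interval from -0.24 to 0.31. The other probe sets rose by 0.50 and 0.30 log2 (adjusted p = 0.0166 and 0.0440). The remaining named weak rises were N4bp1, an inhibitor of NF-kB signalling, at 0.80 log2, Gadd45g, a stress-induced growth arrest gene, at 0.66, Ccdc28a at 0.85, C5l1 at 0.64, the cell polarity gene Llgl1 at 0.38 and Ggps1, which makes the lipid for protein geranylgeranylation, at 0.37, with adjusted p from 0.0118 to 0.0177. Ggps1 passed on 1 of 3 probe sets, the others having means of 0.11 and 0.05 log2. N4bp1 passed on 2 of 3, and its dimmest had 0.84 log2, higher in 5 of 6 pairs (adjusted p = 0.0944).

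**Figure D1:**
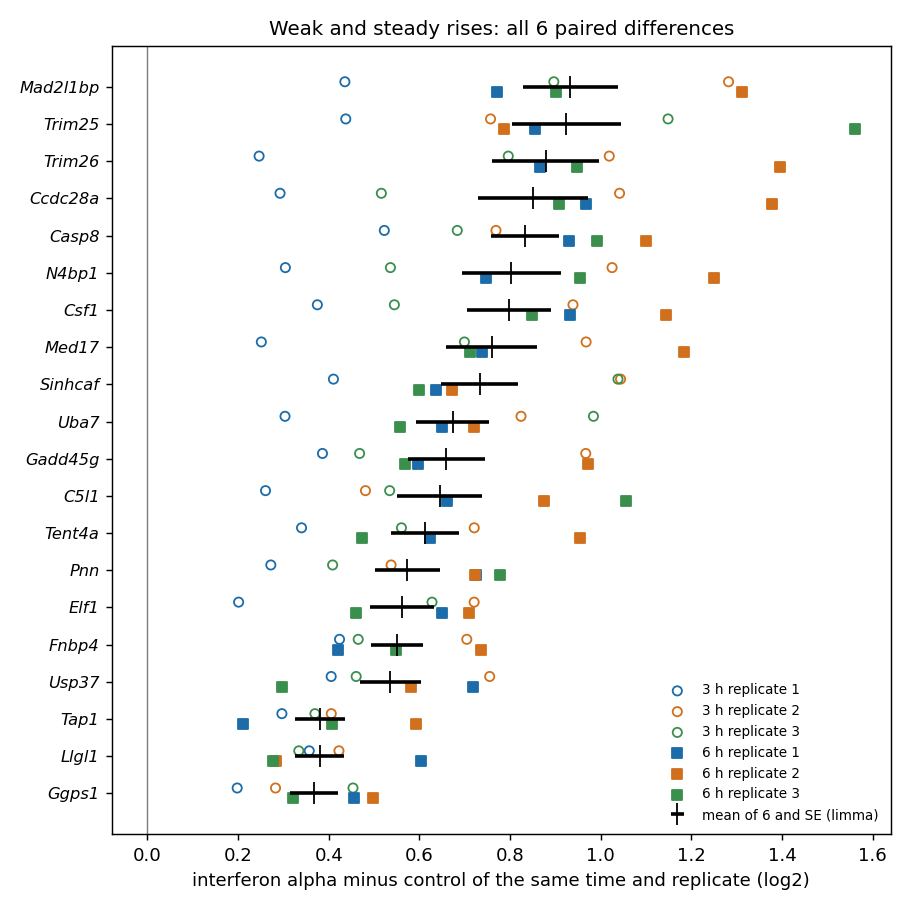
The 20 named weak and steady rises, 1 row per gene, with the 6 differences between treated and untreated cultures on the horizontal axis (log2; open circles 3 h, filled squares 6 h, coloured by replicate number) and the mean with its SE as a black bar. All points lie to the right of 0, and the 3 h pair of replicate 1 (open blue) is most often the leftmost, as in Trim26 at 0.25 and Mad2l1bp at 0.44.

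The size of a weak rise varied with the pair. Over the 102 probe sets the median difference was 0.23, 0.57 and 0.47 log2 in the 3 h pairs of replicates 1 to 3 and 0.59, 0.76 and 0.58 in the 6 h pairs. The 3 h pair of replicate 1 was the smallest of the 6 in 71 of the 102, and the 6 h pair of replicate 2 the largest in 55. The same pairs were lowest and highest for the 109 rises of at least 2-fold, with medians of 0.42 and 2.58 log2. The SD of the 6 differences was 0.228 to 0.622 of the mean in the weak rises, with a median of 0.453, and its median was 0.485 in the stronger ones. Weak rises pass the test only where the SD is small beside the mean, so this range partly follows from the call. The effect at 6 h was above that at 3 h in 84 of the 102 weak rises (median difference 0.23 log2) and in 101 of the 109 stronger ones (1.04 log2). Tested across all probe sets, 0 differed between the times at an adjusted p under 0.05 in limma, and 1167 were larger and 927 smaller at 6 h at an unadjusted p under 0.05.

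**Figure D2:**
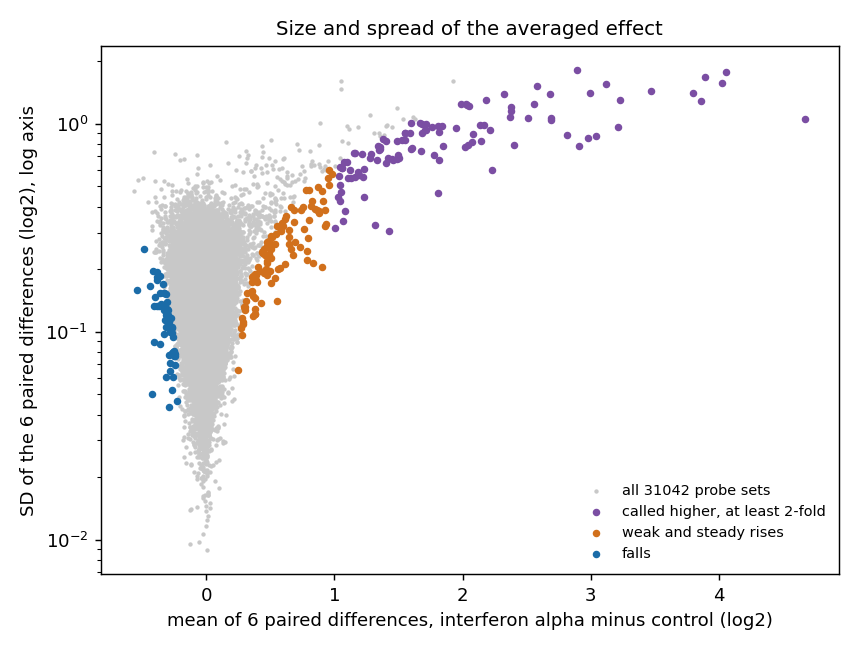
The mean of the 6 paired differences (horizontal, log2, interferon alpha minus control) against their SD (vertical, log2, on a log axis) for all 31042 probe sets in grey, rises of at least 2-fold in purple, weak and steady rises in orange and falls in blue. SD grows with the mean among the rises, while the falls, with means from -0.54 to -0.23, lie at the lower left with a median SD of 0.114.

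Few of the weak rises were seen at 3 h. With a mean for each time fitted to the same differences, 10 probe sets were called higher at 3 h (0.0322%) and 322 at 6 h (1.04%), while 0 were called lower at 3 h, where 1704 had an unadjusted p under 0.05, and 19 at 6 h (0.0612%). Of the 102 weak rises, 6 were called at 3 h and 68 at 6 h in that fit. In 24, carrying the names of 17 genes, neither time alone passed in any of 3 fits (the paired differences, the 12 arrays with the replicate block and the 12 arrays without it). Beside the brightest probe set of Csf1 these included Zfp36 (tristetraprolin), which promotes the decay of inflammatory mRNAs. Zfp36 was higher by 0.27, 0.61 and 0.46 log2 at 3 h and by 0.20, 0.39 and 0.23 at 6 h. Its 3 h differences were the larger ones in each replicate, with a mean over all 6 of 0.36 ± 0.061 log2 (adjusted p = 0.0358).

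The others passing only as an average were of like size. Tifa, an adaptor in NF-kB signalling, was higher by 0.21, 0.93 and 0.49 log2 at 3 h and by 0.64, 0.65 and 0.28 at 6 h, with a mean of 0.53 ± 0.088 (adjusted p = 0.0307). Resf1, a factor that silences retroelements, had 0.34, 0.61 and 0.22 at 3 h and 0.61, 0.65 and 0.28 at 6 h, with a mean of 0.45 ± 0.069 (adjusted p = 0.0228). In Resf1 the 6 h difference was the larger one in each replicate, and in Tifa in replicate 1 alone. The zinc finger gene Zfp217 rose by 0.49, Tnfaip8 by 0.42, C5h1orf50 by 0.25 and Cox19, an assembly factor of cytochrome c oxidase, by 0.54 log2 (adjusted p from 0.0308 to 0.0407), of which Tnfaip8 was dim, at a mean level of 3.52 log2. For Cox19 this was the dimmer probe set; the brighter rose by 0.50 log2 (adjusted p = 0.0330) and passed at 6 h alone as well (0.69 log2, adjusted p = 0.00923). The brighter C5h1orf50 probe set had 0.22 log2 and did not pass (adjusted p = 0.119). A dim probe set of Tap1, the peptide transporter of class I antigen presentation, rose by 0.38 log2 (adjusted p = 0.0177) and passed only as an average, while the brightest one rose by 1.70 log2 (adjusted p = 0.0307). A call missed at a single time does not show that there was no effect then: for the brightest Csf1 probe set the difference between the times had a 95% interval from -0.34 to 0.15 log2.

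The promoters of the weak rises were searched for both interferon motifs. RefSeq promoters of the assembly GRCr8, 250 bases before to 50 after the start, were matched by Entrez identifier. They were found for 47 of the 52 genes whose called probe sets were all under 2-fold. The same held for 58 of 71 genes with a rise of at least 2-fold and for 36 of 39 genes with a fall. The core of the interferon-stimulated response element, searched as GAAANNGAA on both strands, was in 10 of the 47 (21.3%), in 29 of the 58 (50.0%), in 0 of the 36, and in 890 of 11700 promoters of all tested genes (7.61%). The gamma-activated site, TTCNNNGAA, was in 10 of the 47 (21.3%), in 13 of the 58 (22.4%), in 1 of the 36 (2.78%) and in 880 of the 11700 (7.52%). Both motifs may overlap. With 1 mismatch allowed the first was in 72.3%, 84.5% and 52.8% of the 3 sets and in 59.4% of all promoters. The second was then in 59.6%, 82.8% and 47.2% of the 3 sets and in 66.3% of all promoters. A looser search thus separated the sets less, and for the second motif the weak rises lay below the share of all promoters. A match is a description of the sequence and not a shown binding site, and no match says only that these letters are not in the window.

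Of the 10 weak rises with the first motif, 5 are shown as examples. Trim26 and Ggps1 are among the 20 named above. Myd88, Ogfr and Shisa5, chosen after their values were seen, carry it within 30 bases before the start. So does Fmr1, at 21 bases, which is not shown. The first listed promoter of Shisa5 holds no match. Whether the motif has a part in these rises was not tested. Capitals mark the match, which reads TTCNNTTTC where it lies on the other strand. The windows are chr20:1736262-1736561 (minus strand) for Trim26, chr17:55958500-55958799 (plus) for Ggps1, chr8:127956181-127956480 (minus) for Myd88, chr3:188080493-188080792 (plus) for Ogfr and chr8:118581994-118582293 (plus) for the second listed promoter of Shisa5, each running from upstream of the gene's start into its first bases.
Trim26: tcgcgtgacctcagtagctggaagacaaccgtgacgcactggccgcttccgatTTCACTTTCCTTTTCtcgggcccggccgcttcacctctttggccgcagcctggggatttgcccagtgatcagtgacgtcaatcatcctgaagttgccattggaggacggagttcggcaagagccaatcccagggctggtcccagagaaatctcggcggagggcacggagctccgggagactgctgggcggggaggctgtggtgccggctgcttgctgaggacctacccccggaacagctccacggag
Ggps1: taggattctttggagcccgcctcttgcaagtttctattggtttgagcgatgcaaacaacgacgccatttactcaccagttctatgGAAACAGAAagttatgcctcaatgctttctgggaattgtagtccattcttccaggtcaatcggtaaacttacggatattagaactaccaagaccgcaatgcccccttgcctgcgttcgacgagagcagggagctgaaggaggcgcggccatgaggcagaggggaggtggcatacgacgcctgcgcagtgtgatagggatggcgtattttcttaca
Myd88: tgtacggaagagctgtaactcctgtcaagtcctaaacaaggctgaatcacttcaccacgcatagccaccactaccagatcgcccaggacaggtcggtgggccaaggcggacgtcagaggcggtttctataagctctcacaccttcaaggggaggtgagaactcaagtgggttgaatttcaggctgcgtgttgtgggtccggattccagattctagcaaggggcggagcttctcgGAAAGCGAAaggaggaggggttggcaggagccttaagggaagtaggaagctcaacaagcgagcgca
Ogfr: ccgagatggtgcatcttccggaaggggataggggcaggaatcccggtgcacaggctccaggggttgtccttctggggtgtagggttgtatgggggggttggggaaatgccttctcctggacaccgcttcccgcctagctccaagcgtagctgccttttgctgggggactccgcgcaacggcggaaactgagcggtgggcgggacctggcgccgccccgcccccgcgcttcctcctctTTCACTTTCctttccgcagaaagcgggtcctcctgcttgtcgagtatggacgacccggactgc
Shisa5: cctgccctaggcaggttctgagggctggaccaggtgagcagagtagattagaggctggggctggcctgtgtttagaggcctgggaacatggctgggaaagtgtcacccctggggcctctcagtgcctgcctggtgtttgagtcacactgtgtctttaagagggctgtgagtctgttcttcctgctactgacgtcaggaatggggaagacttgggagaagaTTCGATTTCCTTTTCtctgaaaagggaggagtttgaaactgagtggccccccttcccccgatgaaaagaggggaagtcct
Trim26 and the Shisa5 window hold 2 overlapping matches each. Myd88, the adaptor of Toll-like receptors, was higher by 0.07, 0.56 and 0.36 log2 at 3 h and by 0.54, 0.91 and 0.49 at 6 h, a mean of 0.49 ± 0.090 (adjusted p = 0.0471). Ogfr, the opioid growth factor receptor, was higher by 0.11, 0.57 and 0.48 at 3 h and by 0.77, 1.13 and 1.06 at 6 h, a mean of 0.69 (adjusted p = 0.0407). Shisa5 was called on both probe sets, at 0.38 and 0.39 log2 (adjusted p = 0.0443 and 0.0407). The 3 h pair of replicate 1 was the smallest in each.

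The falls were small, close together and similar at both times. Falls this small pass the test only if their 6 differences lie close together. The small spread and the likeness of both times thus partly follow from the call. The 57 probe sets had means from -0.54 to -0.23 log2, with a median of -0.31, and a median SD of 0.114 over the 6 pairs. The median difference was -0.23, -0.32 and -0.34 log2 in the 3 h pairs of replicates 1 to 3 and -0.28, -0.36 and -0.26 in the 6 h pairs. The difference between the times had a median of 0.01 log2, with 30 probe sets less lowered at 6 h and 27 more. They included transcription factors (Tfap4, Foxp1, Cebpa), the ubiquitin ligase Phrf1, the calcium pump Atp2b1, the metalloproteinase inhibitor Timp3 and the methionine adenosyltransferase Mat2a. In 53 of the 57, standing for 36 genes, neither time alone passed in any of the 3 fits. The exceptions were Phrf1, Tfap4, Zfp972 and an unnamed probe set, whose mean was -0.42 log2 (adjusted p = 0.00441; chosen after its values were seen).

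These calls leaned on the pairing and on how the differences were centred. With the replicate number as a block in a fit to the 12 arrays 15 of the 57 were called, with a single value for each replicate number 7, and without any block 1, which was Phrf1. Probe sets above the median level were shifted slightly down as a whole, with median averaged effects of -0.03 log2 between the median and the upper quartile and -0.05 above it. In an alternative chosen after seeing the data, a smooth curve of the differences against level was subtracted within each pair. With this level centring 30 probe sets were called lower, 27 of them among the 57. The 57 control probe sets of the array, not tested above, had 1 lower in all 6 pairs and 0 higher. Beside the pairs, actin control probe sets at the 3′ end stood above those at the 5′ end, a sign of RNA integrity, and this gap differed between treated and untreated arrays by 0.01, 0.11 and 0.06 log2 at 3 h and by 0.02, -0.04 and 0.005 at 6 h. The same gap of the Gapdh control probe sets differed by -0.007, -0.031 and 0.009 log2 at 3 h and by -0.0006, -0.012 and 0.006 at 6 h. The part of either gap in the falls was not tested.

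Phrf1, a PHD and RING finger protein that acts as a ubiquitin ligase, fell the most. It stood at 6.34, 6.40 and 6.40 log2 with interferon at 3 h, against 6.91, 7.14 and 6.98 without, and at 6.73, 6.54 and 6.93 with interferon at 6 h, against 7.16, 7.15 and 7.22 without. The treated and untreated arrays did not overlap at either time. The mean was -0.54 ± 0.062 log2, a change of -31.1%, with an adjusted p of 0.00806, and it was the only fall called without a block (adjusted p = 0.00662). At 6 h alone it passed in the paired fit (-0.44 log2, adjusted p = 0.0408) and at 3 h alone in the block fit (adjusted p = 0.0499), while the paired fit gave -0.63 log2 at 3 h with an adjusted p of 0.0559. It stayed called in 18 of 20 alternative analyses, the exceptions being the ones without replicate 2 and without replicate 3.

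Tfap4, a helix-loop-helix transcription factor, stood at 5.72, 5.82 and 6.10 log2 with interferon at 3 h, against 6.06, 6.21 and 6.48 without, and at 6.08, 5.90 and 6.81 with interferon at 6 h, against 6.40, 6.47 and 7.24 without. Replicate 3 was high in both arms, so that the groups overlapped at both times although the treated array was the lower in each pair. The mean was -0.41 ± 0.048 log2 (adjusted p = 0.00815); at 6 h alone it was -0.44 (adjusted p = 0.0194 in the paired fit and 0.201 with the replicate block). Without a block the adjusted p of the average was 1.00. Slc25a51l1, named as like a mitochondrial carrier, was the fall with the lowest adjusted p that neither time showed alone. It differed by -0.39, -0.43 and -0.34 log2 at 3 h and by -0.20, -0.40 and -0.41 at 6 h. Its mean was -0.36 ± 0.047 (adjusted p = 0.0126), with adjusted p of 0.190 at 3 h and 0.0704 at 6 h, and it was also called with the replicate block (adjusted p = 0.0113).

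Cebpa, a master transcription factor of hepatocyte differentiation, was measured by 5 probe sets, and all 5 had a mean below 0, from -0.25 to -0.37 log2. The one with the lowest adjusted p stood at 8.63, 8.06 and 8.07 log2 with interferon at 3 h, against 8.94, 8.46 and 8.57 without, and at 8.89, 8.79 and 8.92 with interferon at 6 h, against 9.41, 9.08 and 9.09 without. The groups overlapped at 3 h and not at 6 h. Its mean was -0.37 ± 0.056 log2, a change of -22.4% (adjusted p = 0.0228), and a second probe set passed at -0.28 (adjusted p = 0.0247). The brightest did not, at -0.25 log2 (adjusted p = 0.141), nor did the other 2 (adjusted p = 0.0684 and 0.126). Cebpa stayed called in 11 of 19 alternative analyses of that probe set.

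Foxp1, a forkhead transcription factor, had 5 probe sets with means from -0.38 to -0.19 log2, of which 2 were called. The lower adjusted p, 0.0177, went with differences of -0.33, -0.25 and -0.53 at 3 h and -0.23, -0.48 and -0.50 at 6 h. The other called probe set had a mean of -0.34 log2 (adjusted p = 0.0492). Alkbh1, a demethylase of nucleic acids, was among the steadiest, at -0.29, -0.25 and -0.33 at 3 h and -0.35, -0.25 and -0.26 at 6 h. Its mean of -0.29 ± 0.042 log2 (adjusted p = 0.0177) came from the dimmer of 2 probe sets, and the brighter had -0.15 log2 (adjusted p = 0.195). Mat2a, the methionine adenosyltransferase of most tissues other than adult liver, differed by -0.20, -0.27 and -0.36 at 3 h and by -0.49, -0.47 and -0.10 at 6 h, a mean of -0.32 ± 0.060 at the edge of the threshold (adjusted p = 0.0498). That was its brightest probe set; of the other 2, neither of which passed, 1 had a mean of -0.22 log2 (adjusted p = 0.245) and the dimmest 0.16, higher in 6 of 6 pairs (adjusted p = 0.320).

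**Figure D3:**
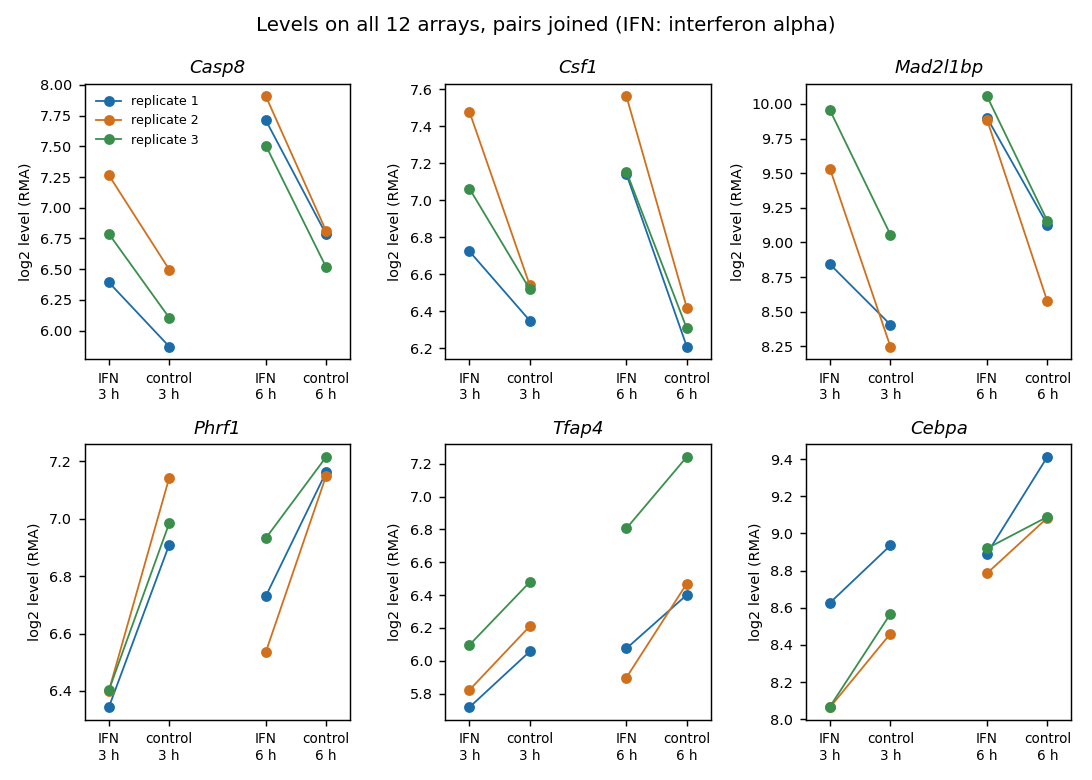
Log2 levels on all 12 arrays for 3 rises (Casp8, Csf1, Mad2l1bp) and 3 falls (Phrf1, Tfap4, Cebpa), each on its probe set with the lowest adjusted p; at each time the interferon arrays are on the left, the untreated on the right, and lines join pairs of a replicate number (colours). Every line slopes down to the right for the rises and up for the falls, while Tfap4 shows replicate 3 apart from the others, at 6.81 with interferon and 7.24 without at 6 h.

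The other named falls were of the same order. Among them Rasal2, which inactivates Ras, fell by 0.33 log2, the nucleolar protein Nol8 by 0.33, Atp2b1 by 0.32, Timp3 by 0.31, the neuronal protein Ncdn by 0.30 and the adherens junction protein Vezt by 0.27, with adjusted p from 0.0195 to 0.0413. Filip1l, at -0.48 ± 0.084 log2 (adjusted p = 0.0388), had the widest spread of the 20 named falls, with -0.82 and -0.77 in replicate 2 at 3 h and 6 h and -0.21 to -0.40 in the others. Klhl21, an adaptor of a cullin ubiquitin ligase, had -0.41 ± 0.070 (adjusted p = 0.0354), and its second, dim probe set had 0.12 log2 and did not pass. The secreted protein Metrnl fell by 0.38, the nucleic acid-binding protein Purb by 0.31, the zinc finger genes Zfp972 and Zfp655 by 0.31 and 0.28, and Nufip2 and Sowahc by 0.26 each. Timp3 passed on 1 of 4 probe sets, as did Purb and Nufip2, and 23 of the 57 falls came from the brightest probe set of their gene. Atp2b1 and Zfp655 passed on 1 of 3 and Nol8, Zfp972 and Vezt on 1 of 2. The brightest probe sets of Atp2b1, Nol8, Zfp972 and Zfp655 did not pass, at -0.14, -0.20, -0.14 and -0.19 log2 (adjusted p from 0.129 to 0.251). That of Purb had -0.10 log2 and was higher in 2 of 6 pairs (adjusted p = 0.480).

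**Figure D4:**
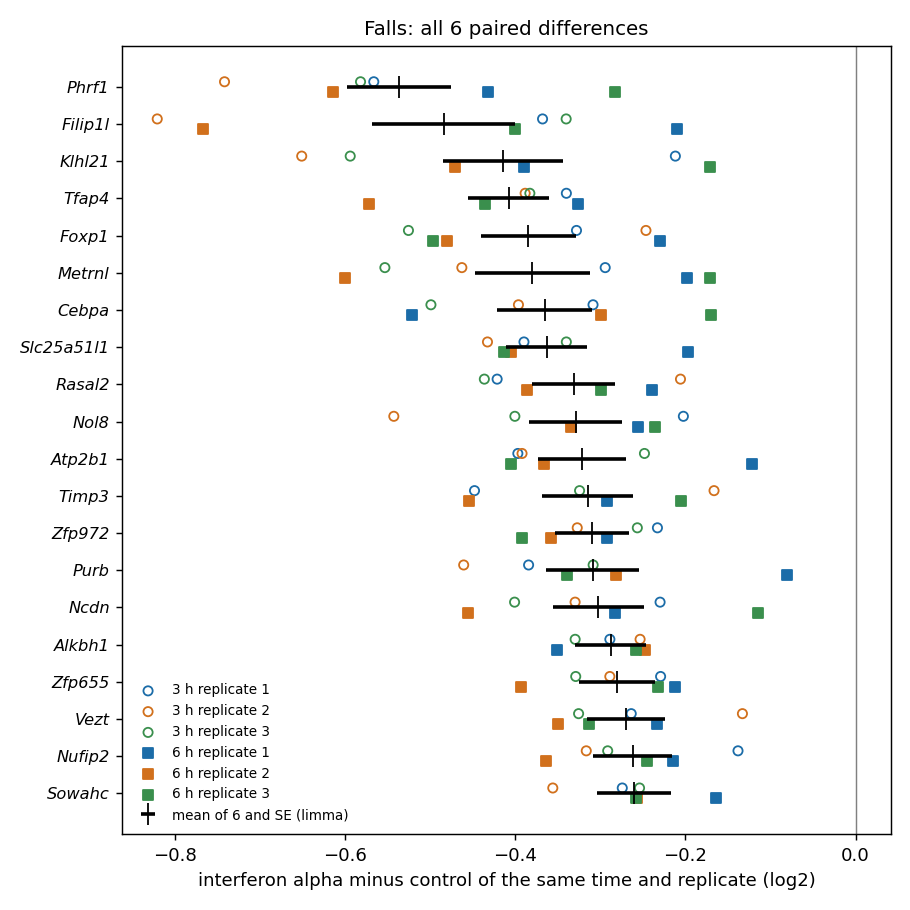
The 20 named falls, 1 row per gene, with the 6 differences between treated and untreated cultures on the horizontal axis (log2; open circles 3 h, filled squares 6 h, coloured by replicate number) and the mean with its SE as a black bar. All points lie to the left of 0, the points of Alkbh1 closest together (-0.35 to -0.25) and those of Filip1l widest apart (-0.82 to -0.21).

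As examples of falls, the promoter windows of Phrf1, the fall also called without a block, and of the hepatocyte factor Cebpa are shown. Neither motif was found in them. This is usual, since the first was in 7.61% and the second in 7.52% of the 11700 promoters of all tested genes. These windows thus do not set falls apart from rises. They are Phrf1 at chr1:205763315-205763614 (plus strand) and Cebpa at chr1:96896334-96896633 (plus strand), from RefSeq on GRCr8, with no capitals because there is no match.
Phrf1: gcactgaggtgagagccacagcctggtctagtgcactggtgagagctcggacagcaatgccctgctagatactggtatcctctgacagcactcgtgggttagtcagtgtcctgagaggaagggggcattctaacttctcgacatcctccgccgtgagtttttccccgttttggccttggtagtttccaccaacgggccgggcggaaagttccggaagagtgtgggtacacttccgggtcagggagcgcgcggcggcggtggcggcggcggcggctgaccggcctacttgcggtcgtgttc
Cebpa: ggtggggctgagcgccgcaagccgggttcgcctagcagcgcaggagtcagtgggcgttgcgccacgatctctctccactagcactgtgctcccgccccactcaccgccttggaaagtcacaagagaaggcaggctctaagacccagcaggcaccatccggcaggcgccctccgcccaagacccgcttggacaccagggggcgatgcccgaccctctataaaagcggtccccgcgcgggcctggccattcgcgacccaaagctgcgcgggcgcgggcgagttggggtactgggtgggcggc

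Genes of known pathways were then counted on the brightest probe set of each gene, where 117 of 14217 genes were called higher (0.823%) and 23 lower (0.162%) and the median averaged effect was -0.02 log2. All 7 measured interferon-inducible GTPases rose, with a median of 2.22 log2. Of 34 antiviral effectors 19 rose and 0 fell, with a median of 1.25. Among the weaker ones were Adar, which edits double-stranded RNA, at 0.87 ± 0.153 log2 (adjusted p = 0.0407), while Ifitm3 had 0.53 (adjusted p = 0.0627) and Bst2 0.17 (adjusted p = 0.241), both higher in 6 of 6 pairs. Of 15 genes of ISG15 and ubiquitin conjugation 9 rose and 0 fell, the smallest being Nub1, which directs NEDD8 conjugates to the proteasome, at 0.45 ± 0.084 (adjusted p = 0.0471) and Rnf114 at 0.74 ± 0.120 (adjusted p = 0.0296).

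Of 22 measured genes of class I antigen presentation 3 rose and 0 fell, with a median of 0.29 log2. In all 6 pairs 13 were higher and 1, the chaperone Pdia3 with a mean of -0.07 log2, was lower, against 488 higher and 1155 lower among all 14217 genes. Tap1 and the class I gene RT1-N3 rose by 1.70 and 1.35 log2, and RT1-T24-4 by 0.27 (adjusted p = 0.0484), the last on a probe set of a kind that may bind related transcripts. The immunoproteasome subunits Psmb9 and Psmb8 had 0.92 and 0.51 log2 in 6 of 6 pairs and did not pass (adjusted p = 0.0588 and 0.0627). B2m, the light chain of class I, had 0.04 log2 (adjusted p = 0.696). Of 29 subunits of the constitutive proteasome 0 were called in limma, 1 was higher and 2 were lower at p under 0.05 before adjustment, and 1 was higher and 3 were lower in all 6 pairs, with a median of -0.02 log2.

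The counts for signal transduction and cell death stand beside 0.823% of all 14217 genes called higher and 0.162% called lower. Of 26 genes of the receptor and JAK-STAT pathway 2 rose, Irf9 (1.05 log2, adjusted p = 0.0115) and Usp18 (1.60, adjusted p = 0.0498), the second a deconjugase of ISG15 that dampens the receptor, and the median was -0.01 log2. Stat2 had 1.04 log2 in 6 of 6 pairs on its brightest probe set (adjusted p = 0.0597) and rose by 1.16 ± 0.170 log2 on a dimmer one (adjusted p = 0.0182), so that 3 genes of the list rose when any probe set is counted, and the receptor chains Ifnar1 and Ifnar2 had -0.16 and -0.06 (adjusted p = 0.194 and 0.543). Of 15 nucleic acid sensors and adaptors 4 rose, Myd88 the least of them. Of 25 apoptosis genes 4 rose: Casp8, the transcriptional regulators Daxx at 1.07 and Pml at 1.61, and the death ligand Tnfsf10 at 2.37 log2. The TGF-beta target Id3 was the 1 of 31 growth factor genes that rose, at 1.10 log2 (adjusted p = 0.0434).

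Lists of hepatocyte functions held few calls, as lists of this size would at the shares of all genes (0.823% higher and 0.162% lower). A list without calls therefore says little about its function. Of 27 hepatocyte transcription factors 0 passed on the brightest probe set in limma (before adjustment 3 were higher and 9 lower at p under 0.05). In all 6 pairs 6 were lower and 1 was higher, against 1155 lower and 488 higher among all 14217 genes. The median was -0.08 log2, against -0.02 over all genes. The median level of these factors was 8.29 log2, and all probe sets above the upper quartile of level (7.54) had a median averaged effect of -0.05. Klf15, a metabolic regulator of the fasting liver, lay just outside the threshold at -0.33 ± 0.063 log2, lower in 6 of 6 pairs (adjusted p = 0.0503). Ppara and Nr5a2 had -0.20 each (adjusted p = 0.0980 and 0.161), and Hnf4a had 0.22, higher in 6 of 6 pairs (adjusted p = 0.186). Of 29 genes of one-carbon and methionine metabolism 1 fell, Mat2a, on 1 of its 3 probe sets, and the adult liver form Mat1a had -0.12 log2 (adjusted p = 0.308). Of 15 bile acid genes 0 were called in limma, and before adjustment 0 were higher and 3 lower at p under 0.05; Cyp7a1, the rate-limiting enzyme of their synthesis, had -0.40 ± 0.138 log2 and was lower in 6 of 6 pairs (adjusted p = 0.228). Of 28 cytochromes P450, 31 secreted proteins, 35 genes of the urea cycle and amino acid breakdown and 30 of cholesterol and fatty acid synthesis, 0 passed in either direction in limma. Without adjustment 1 cytochrome P450 was higher, and 0 cytochromes, 1 secreted protein, 2 genes of the urea cycle list and 4 of the cholesterol list were lower, at p under 0.05. Of 30 genes of chromatin, methylation and transcription 2 rose, the coactivator Ncoa7 at 2.98 and the poly(A) polymerase Tent5a at 1.81 log2, and Phrf1 fell.

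**Figure D5:**
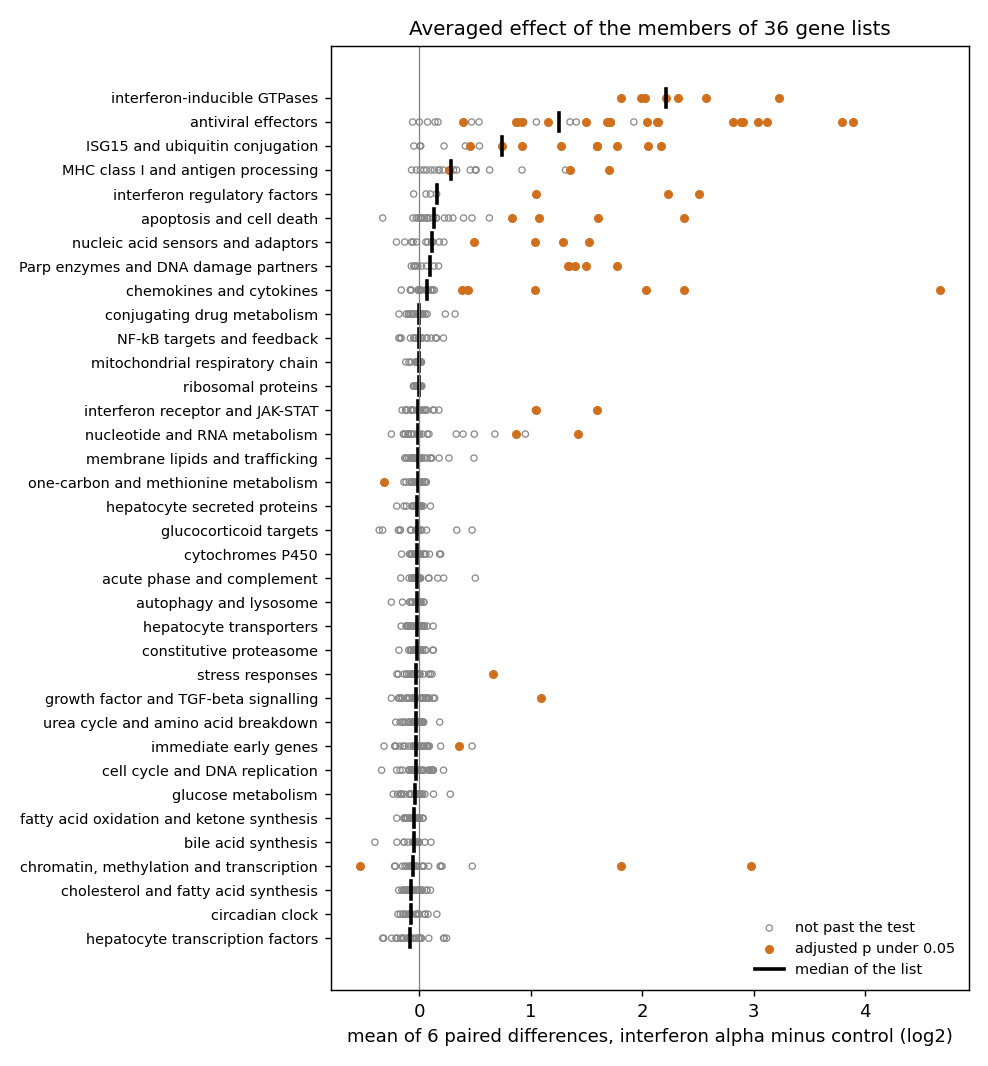
Averaged effect of interferon alpha (log2, horizontal) for the measured members of 36 gene lists, 1 row per list ordered by its median (black tick), on each gene's brightest probe set; filled orange points passed an adjusted p under 0.05 and open grey points did not. The interferon-inducible GTPases lead with a median of 2.22, and the hepatocyte transcription factors are last with -0.08.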

How the data were processed

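Total RNA of 12 cultures was measured on Affymetrix rat arrays. The values deposited by the authors are log2 levels per probe set. The submitters' processing notes name RMA, affy and R 2.10.0. RMA subtracts background, makes the arrays' distributions equal and combines the probes of a set, so each value is relative to the array's common distribution and the number of arrays limits precision. The definition file of the probe sets is not given in the sources used.

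Groups and replicate numbers came from the titles in the labels. Each interferon array was set against the control array of its time and number, and the 6 log2 differences were fitted with 1 mean in limma 3.58.1 (lmFit and eBayes) under R 4.3.3, two-sided, with Benjamini-Hochberg adjustment over 31042 probe sets, called at an adjusted p under 0.05. Errors are limma's moderated SE. The replicate numbers pair the arrays: deviations from group means correlated at 0.651 to 0.829 for the same number and time, at 0.479 to 0.736 for the same number at different times and at -0.562 to -0.0747 for different numbers. A second fit gave each time its own mean. No filter on dim values was set. Alternatives were a time term, the replicate number as a block on 12 arrays, no block, a correlation within replicate numbers, 1 value for each number, other priors, other probe set selections, other centring and leaving out pairs or replicates.

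Names came from the platform annotation: 20826 tested probe sets had 1 symbol, for 14217 genes, 436 had several and 9780 were not listed. Of those with 1 symbol, 20758 matched RefSeq genes of GRCr8 by Entrez identifier. A gene is counted on its brightest probe set and named on any called one.

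The members, gene lists, tests and naming rule were chosen with earlier results of these data known. The rule named the 5 largest rises, the 20 weak and steady rises and 20 falls with the lowest adjusted p, 10 of each that neither time showed alone, and up to 3 called members of each list, or its brightest member. Weak and steady meant called, under 1 log2 and the same sign in all 6 pairs. Other genes named were chosen after their values were seen. The fit was tested on simulated data.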

Additional observations from a re-analysis of the deposited data

How the results depend on the processing

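The counts of probe sets called higher, called lower, weak and steady, and lower with neither time called alone were 212, 57, 102 and 53. They became 320, 79, 162 and 65 with a time term, 317, 24, 144 and 16 with the replicate block across times on 12 arrays, and 134, 1, 37 and 0 with no replicate block, where 280 of the last kind had an unadjusted p under 0.05 in limma. With a correlation within replicate numbers they were 249, 86, 128 and 80, with means of replicate numbers 183, 9, 75 and 5, with limma-trend 401, 288, 232 and 261, and with a robust prior 121, 29, 67 and 25. On probe sets above the median level they were 248, 197, 133 and 189, on the brightest probe set for each gene 114, 48, 53 and 46, with array medians subtracted 203, 76, 92 and 70, and with level centring, chosen after seeing the data, 232, 30, 118 and 25. A limit of 1.5-fold left 59 weak and steady rises. Leaving out a replicate or a pair gave 0 to 305, 0 to 110, 0 to 160 and 0 to 103. Some of these analyses also held fewer pairs or fewer probe sets, and the cause of the changes was not tested.

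Of 80 named called probe sets, 0 changed sign in these analyses. This says little about robustness, because all of them had the same sign in all 6 pairs. Leaving out pairs could therefore not turn the sign, and most of the other fits keep the same mean. The time term kept 79, the replicate block 61 (8 of 21 falls), no replicate block 36 (1 of 21 falls), means of replicate numbers 49 (4 of 21 falls) and level centring 71 (13 of 21 falls). Without replicate 1 the number was 56 (50 of 59 rises and 6 of 21 falls), without replicate 2 it was 3, and without replicate 3 it was 0. The classification by single times was held fixed throughout. The smallest called changes were -0.23 and 0.25 log2.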

Other observations

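A few further called genes are given as values, chosen after these were seen and tested for no common theme. Kmt2b, a histone H3 lysine methyltransferase, differed between interferon and untreated cultures by -0.33, -0.14 and -0.53 log2 at 3 h and by -0.69, -0.36 and -0.27 at 6 h, a mean of -0.39 (limma, adjusted p = 0.0434). Ing1, a PHD finger protein, had a mean of -0.23 (adjusted p = 0.0456), and the RNA-binding protein Syncrip one of -0.24 (adjusted p = 0.0456). These 3 were lower in all 6 pairs, and none passed at a single time. Tut7, which adds uridines to RNA ends, rose by 0.51 log2 (adjusted p = 0.0440), and Ythdf1, a reader of methylated adenosine in mRNA, by 0.55 (adjusted p = 0.0479). Both had their smallest difference in the 3 h pair of replicate 1 and their largest in the 6 h pair of replicate 2. An unnamed probe set rose by 0.90 log2 with an adjusted p of 0.0017, lower than that of any named weak rise.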
